A study of Mus musculus with 6 samples.

Results

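The 17283 paired peaks described here are m6A peaks of mouse spermatocyte RNA that could be placed at the same site in both of the authors' comparisons, ClpP knockout against wild type and ClpX knockout against wild type. A pair joined a peak of each comparison with the same gene name, chromosome and strand whose exonic blocks overlapped by at least 50% of each peak, and only mutual best pairs by shared bases were kept. No measured value entered the pairing. The pairs lay on 11146 genes and took 71.6% of the 24127 ClpP peaks and 73.0% of the 23681 ClpX peaks. For each pair, the ClpX log2 fold change minus the ClpP log2 fold change was taken as an approximate contrast of the knockouts, since both comparisons share the wild-type libraries. The wild-type libraries enter each table over that table's own peak boundaries, so they cancel only in part where boundaries differ, and how far could not be checked without read counts.

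The libraries came from primary male germ cells, labelled spermatocytes, of mice at day 35 after birth. ClpP cKO and ClpX cKO are conditional knockouts in which Stra8-Cre deletes Clpp or Clpx, respectively, in the male germ line, and the wild-type controls (WT) are labelled only by that genotype. Whether the controls carry Cre or floxed alleles, and how many animals were pooled per library, was not stated in the labels. Each genotype had 1 library of antibody-captured RNA (IP) and 1 input library, which leaves every value without a replicate error and every difference without a replicate check.

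N6-methyladenosine (m6A) is the most common internal modification of messenger RNA. It is written by a methyltransferase complex around METTL3 and METTL14, removed by ALKBH5 and FTO, and bound by reader proteins of the YTH family, and several of these proteins are needed for male meiosis and spermatid development. ClpXP is a protease of the mitochondrial matrix in which the hexameric AAA+ unfoldase ClpX feeds unfolded substrates into the chamber of the ClpP peptidase. ClpX also has roles that do not need ClpP, among them in haem synthesis, so the knockouts need not be equivalent.

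A positive log2 fold change was read as higher enrichment in the knockout. This direction rests only on each table naming the knockout before WT, and with the opposite ratio every direction below would turn. The tables were normalised separately by the authors, and read depth per library is unknown. A change in IP over input cannot be told apart from a change in the cells that make up the sample. Of 27 genes of synapsis and the chromosome axis, 20 had a peak in at least 1 table, as did 51 of 56 spermatid genes, 14 of 22 spermatogonial genes, 18 of 24 Sertoli cell genes and 20 of 32 genes of other somatic cells (Leydig, peritubular, endothelial, immune). Among the markers with no peak in either table were Amh and Cldn11 of Sertoli cells, Cyp11a1 of Leydig cells, Acta2 of peritubular cells and Ptprc of leukocytes. A missing peak does not show that the RNA was missing.

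The ClpX values lay above the ClpP values at most pairs. The median log2 fold change over the pairs was 0.09 for ClpX and -0.21 for ClpP in the authors' deposited tables, and the median contrast was 0.28, with 60.2% of pairs above 0. This shift between separately normalised tables was subtracted, and the relative contrast used below is a pair's contrast minus 0.28. Relative contrasts spread with an SD over pairs of 1.13 on the log2 scale. A relative contrast of at least 1, called higher in ClpX cKO below, was found at 2659 pairs, 15.4% of all, and one of at most -1, called lower, at 3144 pairs, 18.2%. Of the pairs past 1 in either direction, 45.8% were higher on this scale, against 64.5% without the subtraction (4021 higher and 2216 lower) and 45.9% when the median was subtracted within each decile of fold enrichment (2534 higher and 2983 lower). Which knockout had more high pairs therefore turned with the centring. Raw contrasts ran from -6.53 to 5.24, and the central 80% lay between -1.19 and 1.54.

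**Figure D1:**
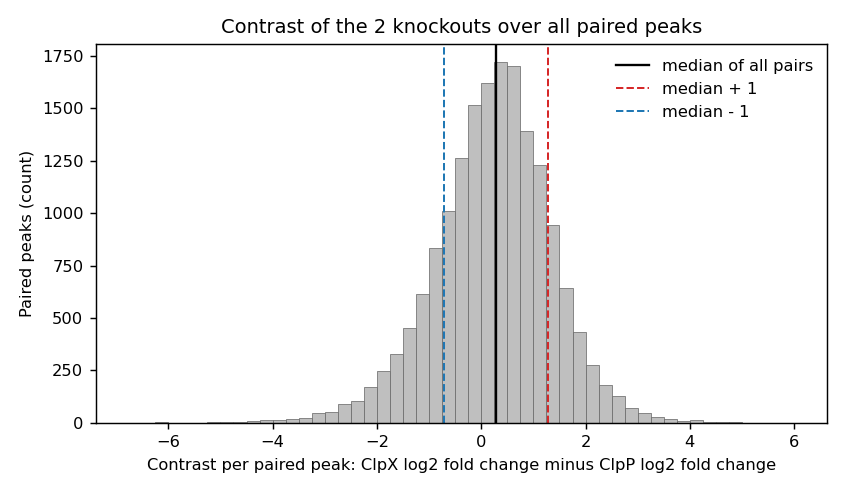
Number of pairs (y axis) by contrast, the ClpX minus the ClpP log2 fold change in bins (x axis), over 17283 pairs. The peak of the distribution lies above 0, at a median of 0.28, and the lines 1 unit to each side of the median leave 2659 pairs above and 3144 below.

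The peaks left without a pair differed from the paired ones. The 6844 unpaired ClpP peaks had a median length of 181 bases and a median log2 value of 0.66 in the authors' deposited table, against 384 bases and -0.21 for paired peaks. The 6398 unpaired ClpX peaks had a median length of 181 bases and a median log2 value of 0.81 in the authors' deposited table, against 360 bases and 0.09. The pairs thus leave out short peaks with high knockout values from both tables.

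The contrast moved with how strongly a site was enriched. In the quintile of pairs with the lowest fold enrichment, a linear ratio of IP to input (geometric mean of both tables from 1.16 to 4.14), the median contrast was 0.57. It was 0.45, 0.34 and 0.08 in the next quintiles, and -0.09 in the quintile of highest enrichment (17.7 to 162). The ClpX median carried most of this, going from 0.62 in the lowest quintile to -0.46 in the highest in the authors' deposited table, while the ClpP median went from 0.02 to -0.39. Higher pairs made up 22.2% of the lowest quintile and 9.49% of the highest, and lower pairs 9.43% and 27.5%. Each peak has a single fold enrichment per table, so it includes the knockout's own signal, and its part in this trend was not tested. For most gene lists below, the median after centring within deciles of enrichment is given beside the list's own.

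The spread moved with the overlap of the paired peaks. Between 50% and 55% overlap the interquartile range of the contrast was 1.90 (767 pairs), between 90% and 100% it was 1.12 (4219 pairs), and over the 2669 pairs with identical boundaries it was 1.15. The 349 would-be pairs just outside the rule, with 45% to 50% overlap, had an interquartile range of 1.95 and a median contrast of 0.04, and those from 50% to 55% a median of 0.15. The median overlap of all pairs was 85.9%. The ClpX peak was the longer in 35.6% of pairs and the shorter in 44.5%. Bases were shared with a peak of another gene in 10.3% of pairs, and the counting could assign those reads to either gene.

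**Figure D2:**
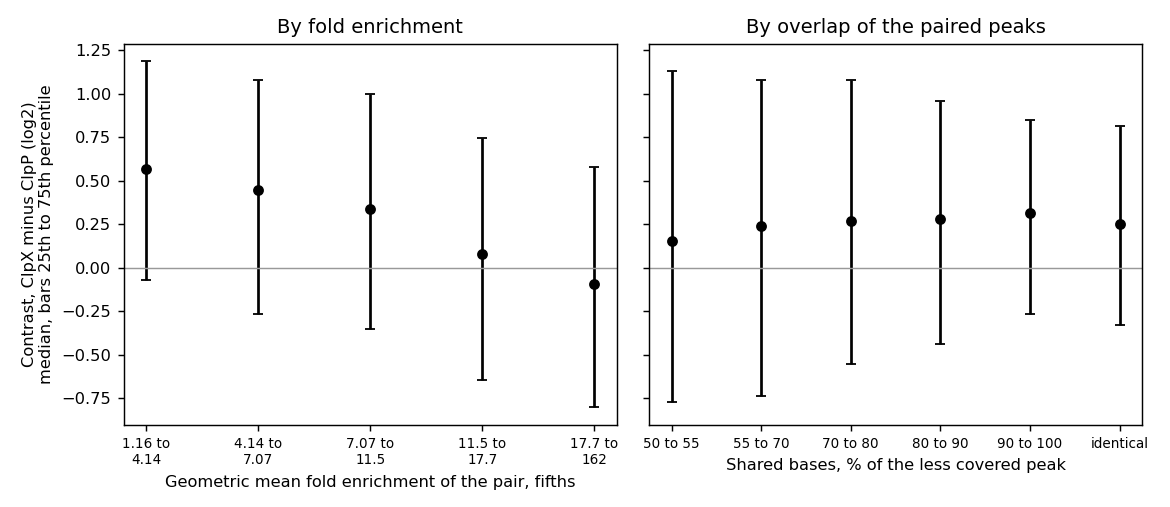
Contrast (ClpX minus ClpP log2 fold change, y axis) by quintiles of the geometric mean fold enrichment and by overlap of the paired peaks (x axes), with the median as a point and the 25th to 75th percentile as a bar. The median goes from 0.57 to -0.09 with rising enrichment, and the bars narrow from 1.90 at 50% to 55% overlap to 1.15 at identical boundaries.

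With 1 library per group, sites of the same gene gave the only measure of spread. They share their transcript and the libraries, so they are not replicates. Of the genes, 7017 had 1 pair and 4129 had 2 or more, with at most 11. The median SD between sites of a gene was 0.71 on the log2 scale (pooled SD 1.03), against an SD of 1.05 over the genes. Over the 179 genes with at least 2 pairs of identical boundaries the median SD was 0.54. A relative contrast of 1 at a single site was thus about as large as the pooled SD between sites of the same gene.

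The pairs that the authors call in opposite directions, both at an adjusted p under 0.05, were looked at next. Among all pairs, the authors' calls in the ClpP comparison were 895 higher (5.18%) and 2893 lower (16.7%), and in the ClpX comparison 2478 higher (14.3%) and 1129 lower (6.53%). Pairs called higher for ClpX and lower for ClpP numbered 711 (4.11%), and 7 (0.0405%) were called the other way. Both calls use the same WT libraries and each table has its own zero, so these counts only give the pool from which the pairs below were drawn. With a fold enrichment of at least 5 in both tables, no shared bases and no predicted gene, 281 and 3 pairs remained. Each of the authors' p-values compares single libraries and not the conditions.

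From each direction up to 6 pairs were taken, ranked by the smaller of the absolute log2 fold changes in the tables. Among the 6 with the higher value in ClpX cKO, the contrasts of Zdhhc7, Xrra1 and Ap5b1 were the largest. Zdhhc7, a palmitoyltransferase, had a pair on chromosome 8 (minus strand, ClpP peak 120081996 to 120082623, overlap 91.3%) at -1.01 for ClpP and 1.58 for ClpX in the authors' deposited tables, with adjusted p of 7.94e-07 and 6.46e-08. The Xrra1 pair on chromosome 7 (plus strand, 99917583 to 99917822) stood at -1.13 and 1.40, with adjusted p of 2.09e-09 and 8.13e-06 in the authors' deposited tables. Ap5b1, a subunit of the AP-5 adaptor complex, had -1.99 and 1.03 on chromosome 19 (plus strand, 5568924 to 5569403), with adjusted p of 7.94e-13 and 0.000513 in the authors' deposited tables. The relative contrasts were 2.31, 2.25 and 2.74. The ClpX peak of Ap5b1 reached further upstream, and the overlap was 55.2%.

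The 3 others of these 6 pairs had smaller contrasts. Map3k10, a kinase upstream of JNK, stood at -1.09 and 1.01, Faap100, of the Fanconi anaemia core complex, at -1.0 and 1.11, and the F-box gene Fbxl19 at -0.98 and 1.1 in the authors' deposited tables. Their relative contrasts were 1.82, 1.83 and 1.80. Fbxl19 had 3 pairs, and only the one next to the gene's end on chromosome 7 (127767900 to 127768437, overlap 50%) was past 1, while the others had relative contrasts of -0.69 and 0.46. In the opposite direction 3 pairs were left. Fsip2, a partner of the sperm fibrous sheath, stood at 0.84 for ClpP and -1.24 for ClpX on chromosome 2 (plus strand, 82981878 to 82982928), with adjusted p of 0.0339 and 0.0246 in the authors' deposited tables. Ube3a, a ubiquitin ligase, stood at 0.52 and -0.89, and Ankar at 0.41 and -0.73 in the authors' deposited tables. The relative contrasts were -2.36, -1.69 and -1.42.

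The largest contrasts were taken from 2727 pairs that had a fold enrichment of at least 5 in both tables, a call by the authors in at least 1 table, no shared bases and no predicted gene. Among the 10 largest in favour of ClpX cKO, 6 rested on a low ClpP value with no ClpX call and 4 on a high ClpX value with no ClpP call. Zc3h6, a CCCH zinc finger gene, stood at 1.39 for ClpP and 5.59 for ClpX on chromosome 2 (plus strand, 129014606 to 129014785), with adjusted p of 0.387 and 0.000339 in the authors' deposited tables. Cldn3, a tight junction claudin, had identical boundaries in both tables (chromosome 5, plus strand, 134987053 to 134987472), with -1.14 and 2.61 in the authors' deposited tables. Fam20a stood at -0.15 and 3.56, and the ATR partner Atrip, at a site with identical boundaries, at -0.66 and 2.50 in the authors' deposited tables. Their relative contrasts were 3.92, 3.47, 3.43 and 2.89.

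In Lrp5, a Wnt co-receptor, the difference came from the other table, with -3.16 for ClpP (adjusted p 1.2e-05) and 0.46 for ClpX (adjusted p 0.67) in the authors' deposited tables. Its fold enrichment was 5.26 in the ClpP and 52.1 in the ClpX table (chromosome 19, minus strand, 3595873 to 3596322). Zfp606, the lipid kinase gene Pip4k2b, the adaptor Fyb, the GATA cofactor Zfpm2 and Mgat1, of N-glycan synthesis, followed the same form, with ClpP values from -3.90 to -1.83 and ClpX values from -0.79 to 1.26 in the authors' deposited tables. Their relative contrasts ran from 2.81 to 3.26.

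On the lower side, 7 of the 10 rested on a low ClpX value with no ClpP call. Csnk1a1, casein kinase 1 alpha, had -0.25 for ClpP and -4.51 for ClpX, with adjusted p of 0.575 and 2.14e-07 in the authors' deposited tables, and a relative contrast of -4.54 at an overlap of 57.8%. Coa6, an assembly factor of respiratory complex IV, had -0.09 and -3.45 (chromosome 8, plus strand, 126422784 to 126425403, overlap 93.3%) in the authors' deposited tables, and a relative contrast of -3.64. Its fold enrichment was 158 in the ClpP and 25.3 in the ClpX table. Pank1, a pantothenate kinase of coenzyme A synthesis, stood at 0.64 and -2.30, the Rab activator Dennd2a at 0.26 and -3.25, and the tyrosine kinase Srms at -1.71 and -5.27 in the authors' deposited tables, with relative contrasts of -3.22, -3.78 and -3.84. Ccdc192 and the zinc finger gene Zfp626 had relative contrasts of -3.50 and -3.37. The 3 others rested on a high ClpP value: the KRAB zinc finger gene Rbak stood at 4.06 and 1.14, Tceanc on the X chromosome at 2.74 and -0.94, and AV099323 at 2.19 and -1.60 in the authors' deposited tables.

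**Figure D3:**
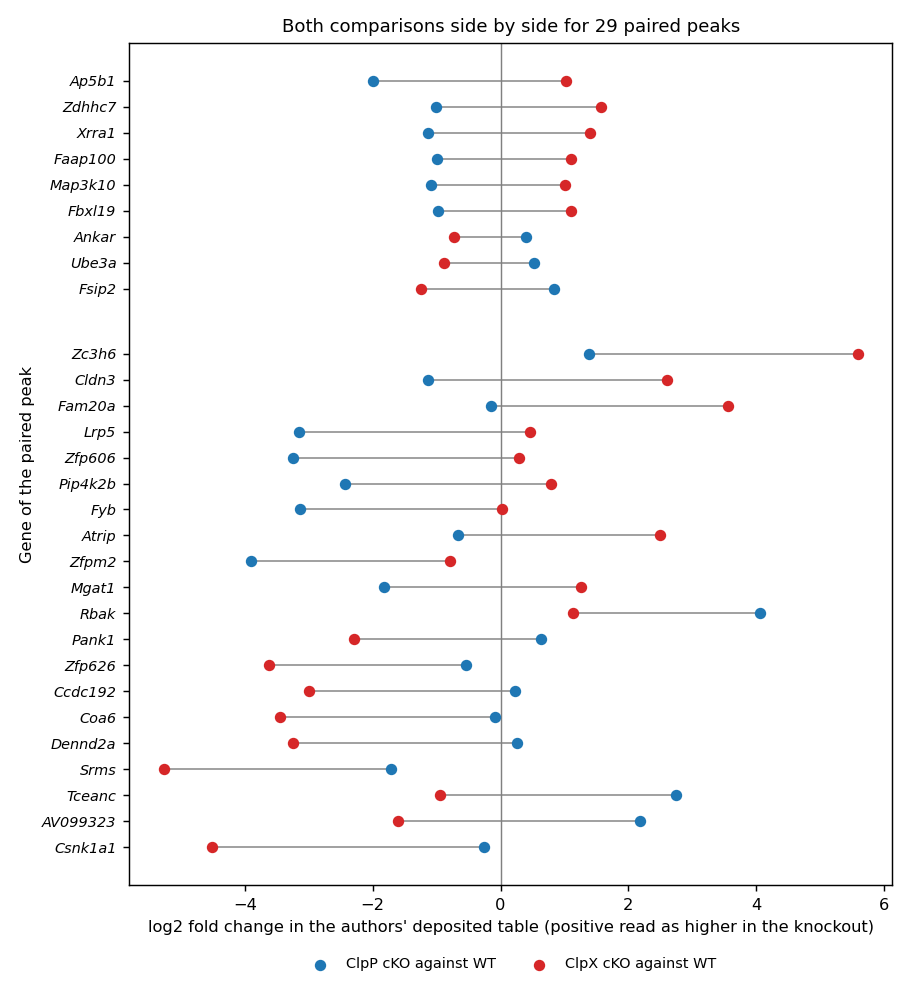
Log2 fold change against WT (x axis) for ClpP cKO and ClpX cKO, joined by a line for each named pair (y axis, gene symbols), each point from 1 table and without replicate error. Zc3h6 stands furthest to the right for ClpX at 5.59, Srms furthest to the left at -5.27, and the pairs called in opposite directions lie on both sides of 0.

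The targeted genes gave little contrast. The Clpx pair, near the end of the gene on chromosome 9 (plus strand, 65329852 to 65330240, gene span 65294251 to 65330658, overlap 92.3%), stood at 0.38 for ClpP and 0.55 for ClpX in the authors' deposited tables, neither called, with a relative contrast of -0.11. Clpp had a peak in the ClpX table only and therefore no pair. A ratio of IP to input does not measure how much of the transcript was left, so these values do not check the genotype labels.

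Of the mitochondrially encoded RNAs, mt-Nd2 of complex I gave the only pair. It stood at 0.62 for ClpP and 1.77 for ClpX in the authors' deposited tables, with a relative contrast of 0.88 at an overlap of 51.5% (positions 4418 to 4951 in the ClpP and 3914 to 4951 in the ClpX table). There were 7 mitochondrial peaks in the ClpP comparison and 8 in the ClpX comparison. Overlap of at least 1 base added mt-Nd4, at 27.6% overlap and a relative contrast of 1.18, and mt-Nd5, at 46.8% and 1.68. All 3 were above 0, and the ClpX peaks of all 3 were longer than the ClpP peaks.

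For gene lists, a gene took the median relative contrast of its pairs. Over all 11146 genes, 12.3% were higher, 16.3% lower, and the median was -0.02. The lists were read against these shares, and the members past 1 are described without a test. Some members past 1 fell within 1 after centring within deciles of enrichment, and not every such case is marked below. The medians of the respiratory chain, TCA cycle, mTORC1, autophagy, stress response, synapsis, meiotic division, piRNA, proteasome, Sertoli, cytosolic ribosome and Slc25 lists changed sign under at least 1 alternative processing, so no direction is read from them. The uncentred contrast was not among the alternatives run on the lists. Adding back 0.28 would also turn the ClpXP, recombination and spermatogonial medians positive, so no direction is read from these either.

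The listed genes of ClpXP and of mitochondrial protein quality control stayed within 1 on the relative scale. Of 26 listed genes 20 had a pair, with 0 higher and 0 lower and a median of -0.11. The range went from -1.0 at Afg3l2, a subunit of the m-AAA protease, to 0.93 at Phb2, a prohibitin. Lon protease (Lonp1) had 0.50, the chaperonin Hspd1 0.10, the mitochondrial HSP70 Hspa9 0.44, and Eral1, an rRNA chaperone known as a ClpXP substrate, 0.48. The integrated stress response, through which mitochondrial faults reach translation by way of OMA1, DELE1 and the kinase HRI, also had 0 genes past 1 among 22 with a pair (median -0.06). Oma1 had -0.26, Dele1 -0.33, the HRI gene Eif2ak1 0.18, and the targets Ddit3, Trib3 and Chac1 had -0.68, 0.96 and 0.74. Against 12.3% and 16.3% of all genes these counts are low, but over 20 and 22 genes they were not tested. They also changed with the centring. After centring within deciles of enrichment Chac1, Trib3 and Sesn2 had 1.175, 1.103 and 1.086, past 1. Without centring every value is 0.28 higher, which takes members of both lists past 1.

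The m6A machinery held members at both ends. Of 29 listed genes 24 had a pair, with 2 higher and 2 lower and a median of 0.15. Among the writers, Zc3h13, a scaffold of the writer complex, was lower at -1.18 over 5 sites on chromosome 14. Its 5 relative contrasts were -1.18, -0.73, -1.45, -1.26 and -0.09 from the 5-prime to the 3-prime site. The sign of the last turned with the centring, at 0.19 without it and 0.16 after centring within deciles of enrichment. The authors called 1 of the sites, with adjusted p of 0.00603 in the ClpX column of the authors' deposited tables. Virma, another scaffold of the complex, had -0.69 over 5 sites that ran from -2.25 to 0.80. Wtap had -0.29 and Rbm15 -0.79. The ligase Cbll1 was higher at 1.12, at a pair that shares bases with another gene's peak. Zcchc4, which methylates ribosomal RNA, was higher at 2.55 from -2.98 for ClpP and -0.15 for ClpX in the authors' deposited tables, without a call in either table.

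Erasers and readers also lay on both sides of 0. The eraser Alkbh5 had a median of 0.94 over 4 sites, with 1.25, 1.59 and 0.64 at the upstream sites and -1.52 at the most downstream. Fto had 0.30. The cytoplasmic readers Ythdf1, Ythdf2 and Ythdf3 had 0.15, 0.15 and 0.12. The nuclear reader Ythdc1 had -0.91, with 0.12, -1.02, -0.80 and -1.59 from its 5-prime to its 3-prime site, and the -1.02 pair shares bases with another gene's peak. Of other readers and binding proteins, Igf2bp3 had -0.85, Fmr1 -0.74, Prrc2a 0.80 and Eif3a 0.62. Igf2bp1, a reader that stabilises bound mRNA, was lower at -2.46 from 2.03 and -0.16 in the authors' deposited tables, again without a call. Of these genes only Zcchc4, Cbll1, Igf2bp1 and Zc3h13 were past 1, and Zcchc4, Igf2bp1 and Cbll1 each rested on a single site. After centring within deciles of enrichment Zc3h13 had -0.86, no longer past 1, and the listed gene Rbmx went from 0.64 to 1.08.

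The title of the study names mTORC1, the kinase complex that couples amino acids and growth factors to translation and autophagy. Of 56 listed genes 38 had a pair, with 1 higher and 3 lower and a median of 0.08. Mtor itself had 0.65, from -0.85 for ClpP (called lower) and 0.07 for ClpX in the authors' deposited tables. Of the Rag GTPases that recruit mTORC1 to the lysosome, Rragc was higher at 1.03 (sites 0.40 and 1.65, both with identical boundaries) and Rragd lower at -1.26 (sites -2.27 and -0.26). The translation repressor Eif4ebp1 was lower at -1.12, a median of a site at 0.71 and one at -2.94. The site at 0.71 had identical boundaries inside the gene. The site at -2.94, from 27275695 at an overlap of 55.6%, lies beyond the RefSeq gene end at 27275656. The Rragd and Eif4ebp1 values were medians of 2 sites that differed by over 2 units, and none of their pairs was called. Raptor (Rptor) had -0.13 over 4 sites, the S6 kinase Rps6kb1 -0.94 and Sesn2, an amino acid sensor, 0.97.

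Core autophagy genes, many of them under mTORC1, had 5 higher and 2 lower of 26 with a pair (19.2% and 7.69%), with a median of 0.09 and -0.11 after centring within deciles of enrichment. The scaffold Atg9a was higher at 1.92, from -0.50 for ClpP and 1.70 for ClpX with adjusted p of 0.0339 and 2.88e-08 in the authors' deposited tables. Tmem41b, a scramblase of phagophore growth, was higher at 1.38 with identical boundaries, and the cargo receptor Sqstm1 at 1.36. The pairs of Atg9a and Sqstm1 share bases with another gene's peak. Atg4b, the protease that primes LC3, had 1.34, Atg13 1.19 and Map1lc3b, an LC3 gene, 0.91. Wipi1, which binds phosphoinositides on the phagophore, was lower at -1.79 and the mitophagy receptor Optn at -1.28. For Wipi1 neither table had a call.

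Few nuclear genes of mitochondrial metabolism were past 1. Of the respiratory chain, 13 of 40 listed genes had a pair, with 2 higher and 0 lower and a median of 0.13 (0.28 after centring, and -0.16 over the 6 genes with a fold enrichment of at least 5). Ndufb8 of complex I was higher at 1.80, from 0.00 for ClpP and 2.08 for ClpX with adjusted p of 0.658 and 0.000794 in the authors' deposited tables, and Uqcrc1 of complex III at 1.24. The lower fold enrichment of Uqcrc1 was 1.61, and after centring within deciles it had 0.91, no longer past 1. Of the TCA cycle and fatty acid oxidation, 12 had a pair, with 0 higher and 2 lower and a median of -0.25, or -0.49 after centring within deciles and 0.21 over 4 genes at identical boundaries. The carnitine transferase Cpt1a was lower at -1.12 and the acyl-CoA dehydrogenase Acadm at -1.09, at pairs with no call in either table. After centring within deciles they had -0.96 and -0.94, no longer past 1. The 2-oxoglutarate dehydrogenase complex had Ogdh at -0.87, Dld at -0.90 and Dlst at 0.44. After centring these were -1.02, -1.09 and 0.11, so the genes past 1 in this list changed with the centring.

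Mitochondrial dynamics and the upkeep of mtDNA had 4 higher and 2 lower of 20 genes with a pair, and 16 of the 20 were above 0 (median 0.21, or 0.32 after centring). Among the genes of mitochondrial transcription, Tfb2m was higher at 1.85 and the RNA polymerase Polrmt at 1.76, while Tfam had 0.25. Polrmt stood at -0.71 for ClpP and 1.33 for ClpX, with adjusted p of 0.321 and 0.0246 in the authors' deposited tables, at an overlap of 54.0%. Mtfp1 and Pld6, an outer membrane protein that also serves piRNA biogenesis, were higher at 1.04 and 1.01. After centring within deciles Mtfp1 had 1.02 and Pld6 0.92, no longer past 1. Of the fusion GTPases, Mfn1 was lower at -1.32 and Mfn2 had 0.92. The fission GTPase Dnm1l was lower at -1.28 and its receptor Mff had 0.80.

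The mitochondrial ribosome was the largest list, with 58 genes. It had 8 higher (13.8%) and 6 lower (10.3%) and a median of 0.27, which was 0.09 after centring within deciles of enrichment. Mrps28 had 1.90 at identical boundaries without a call, and Mrpl54 1.58, also at identical boundaries, from 0.03 for ClpP and 1.89 for ClpX with adjusted p of 0.552 and 2e-38 in the authors' deposited tables. Mrps25 was lower at -1.88 and Mrps35 at -1.67. The Slc25 carriers of the inner membrane had 3 higher and 1 lower of 22 with a pair (median 0.28). The coenzyme A carrier Slc25a42 had 2.21, the ornithine carrier Slc25a15 1.33 and the ATP-Mg carrier Slc25a25 1.08, and Slc25a35 was lower at -1.47 at a pair that shares bases with another gene's peak.

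**Figure D4:**
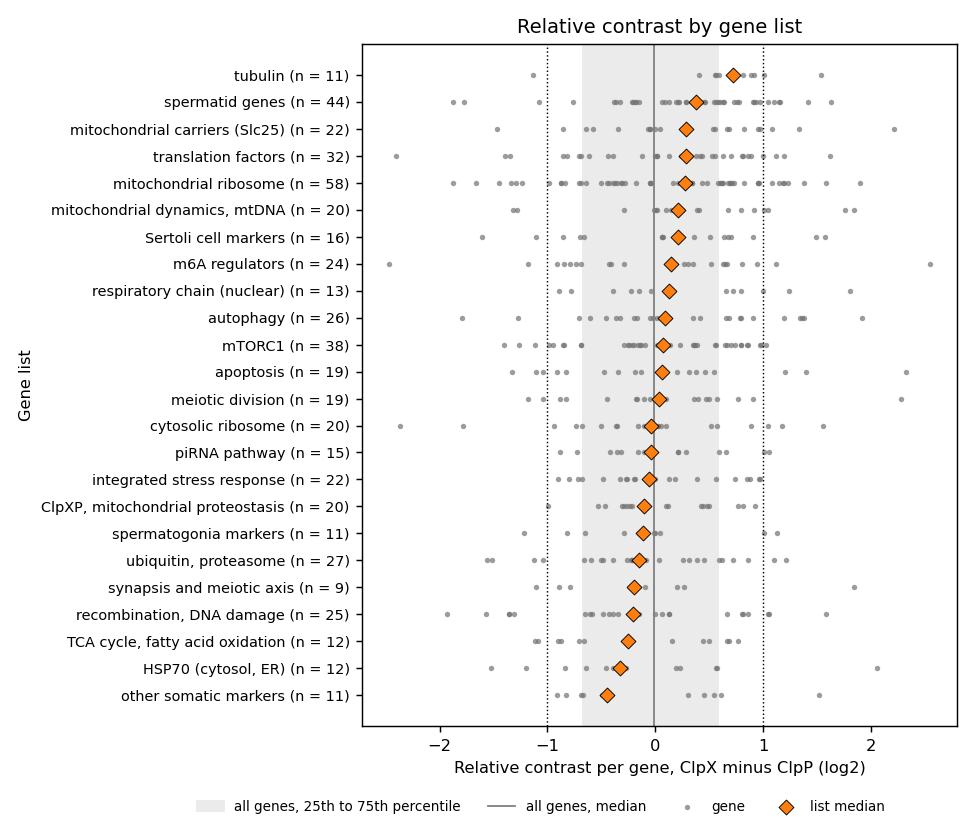
Relative contrast of each listed gene (x axis, ClpX minus ClpP log2 fold change less the median over pairs; grey points are genes, orange diamonds the list medians) by gene list (y axis), with dotted lines at 1 and -1 and a grey band from the 25th to the 75th percentile of all genes. On this scale the ClpXP and stress response lists have 0 points past the lines, which changes with the centring. Tubulins and spermatid genes have the highest medians shown, at 0.72 and 0.38.

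Genes of meiotic recombination and the DNA damage response lay on both sides of 0. Of 40 listed genes 25 had a pair, with 3 higher (12.0%) and 5 lower (20%) and a median of -0.21, shares close to those of all genes. Prdm9, the methyltransferase that places recombination hotspots, was lower at -1.93 at a strongly enriched site (fold enrichment 68.9 and 62.4) on chromosome 17 (minus strand, 15544844 to 15545352), from 0.24 and -1.41 without a call in the authors' deposited tables. Rad50 of the MRN complex was lower at both its sites, with -1.94 and -1.21. The crossover factor Mlh3 was lower at -1.36, from 0.28 for ClpP and -0.80 for ClpX with adjusted p of 0.0724 and 0.000912 in the authors' deposited tables, over nearly the same bases (overlap 99.1%). Brca1 had -1.31 and the BRCA2 partner Hsf2bp -1.35. Atrip was higher at 1.58, a median of the large contrast described above and of a site at 0.27 that shares bases with another gene's peak. Spo11, which makes the meiotic breaks, had -0.43 and Atm -0.15.

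Of synapsis and the chromosome axis only 9 genes had a pair, with 1 higher and 1 lower and a median of -0.20, or 0.05 after centring. Syce3 of the central element was higher at 1.84, but at a fold enrichment of 1.35 in the ClpP table, and Terb1, which ties telomeres to the envelope, was lower at -1.11. Sycp1 had 0.20 and Sycp2 -0.89. The meiotic divisions had 1 higher and 2 lower of 19 with a pair (median 0.04). Fzr1, an activator of the anaphase-promoting complex, was higher at 2.28, from -0.32 for ClpP and 2.24 for ClpX with adjusted p of 0.115 and 3.16e-27 in the authors' deposited tables. The cohesin protector Sgo1 was lower at -1.18 and the phosphatase Cdc25a at -1.04. Cdk1 and Ccnb1, of the division kinase, had -0.17 and -0.45.

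The piRNA pathway had 2 higher and 0 lower of 15 with a pair (median -0.04, or -0.25 after centring). Henmt1, which methylates piRNA ends, was higher at 1.05, from -1.39 for ClpP (adjusted p 2.51e-13) and -0.06 for ClpX (adjusted p 0.608) in the authors' deposited tables. Pld6 was higher at 1.01, from -0.65 (adjusted p 2.51e-21) and 0.64 (adjusted p 4.79e-10) in the authors' deposited tables, so it was called in both tables. The PIWI genes Piwil1 and Piwil2 had -0.11 and -0.72. After centring within deciles of enrichment Henmt1 and Pld6 had 0.96 and 0.92, no longer past 1, and the listed gene Mybl1 went from -0.88 to -1.10. The genes past 1 in this list thus changed with the centring.

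Spermatid genes had a median above that of all genes. Of 44 with a pair, 32 were above 0, against 5511 of 11146 genes, with 6 higher (13.6%) and 3 lower (6.82%). The median was 0.38, and 0.26 after centring within deciles of enrichment. Their median fold enrichment, 4.30, lay below the 9.29 of all genes, in the range where the contrast itself was higher, and its part in the list's median was not tested. The protamines Prm1 and Prm2 had 0.34 and 0.90 and the transition protein genes Tnp1 and Tnp2 0.06 and 0.45. Actl7a, of the acrosome, was higher at 1.41, from -1.11 and 0.58 in the authors' deposited tables, and was called in both. The axonemal dyneins Dnah1 and Dnah17 had 1.63 and 1.15, where the Dnah1 pair shares bases with another gene's peak, and the kinase Tssk2 had 1.1. Against this, Crem, the transcription factor of spermatid genes, was lower at -1.08 and its coactivator Fhl5 at -1.87. Fscb, of the fibrous sheath, was lower at -1.77 over sites at -1.64 and -1.91. Fhl5 was called in neither table. After centring within deciles of enrichment Dnah17, Tssk2 and Crem had 0.87, 0.91 and -0.645, no longer past 1. The lowest fold enrichment of Dnah17 was 1.41.

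The tubulins had the highest median among lists of more than 1 gene. Of 11 with a pair, 10 were above 0, with 2 higher and 1 lower and a median of 0.72, or 0.54 after centring within deciles. Tubb2a had 1.53, Tubb5 1.01, Tubb3 0.89 and Tubb4b 0.59 over sites at 0.52, 1.25 and 0.59. The lower fold enrichment of Tubb5 was 1.83, and after centring within deciles it had 0.675, no longer past 1. Delta-tubulin (Tubd1), of centrioles, was lower at -1.14. Genes of alpha and beta tubulin are close in sequence, and reads could be assigned to the wrong copy.

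Markers of other cells did not share a direction. Spermatogonial genes had 2 higher and 1 lower of 11 (median -0.12, or -0.30 after centring): Zbtb16 had 1.13, a median of 2.60 and -0.35, Taf4b 1.01 and Etv5 -1.22. Sertoli genes had 2 higher and 2 lower of 16 (median 0.21, or 0.10 after centring), with Dhh at 1.49, Cst12 at 1.57, Kitl at -1.61 and Inhbb at -1.11, whose sites had -1.20 and -1.02. The other somatic genes had 1 higher and 0 lower of 11 (median -0.45, or -0.26 after centring), the higher one being Lhcgr, the luteinising hormone receptor of Leydig cells, at 1.52 without a call.

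Genes of protein synthesis and turnover spread to both sides. Translation factors had 4 higher and 3 lower of 32 with a pair (median 0.28, or 0.10 after centring within deciles). Eif2b1, of the exchange factor that the stress response acts on, was higher at 1.62, from -0.35 and 1.55, and was called in both of the authors' deposited tables. Eif4g2 had 1.20 and Eef1d 1.12. Their lowest fold enrichments were 1.28 and 1.56, and after centring within deciles they had 0.98 and 0.91, no longer past 1. Eif5a had -2.40, Eef1b2 -1.39 and Eif2a -1.35, of which only Eif2a had a call (ClpX, adjusted p 0.0468 in the authors' deposited table). Cytosolic ribosomal protein genes had 3 higher and 2 lower of 20 with a pair (median -0.04, or -0.26 after centring), with Rpl34 at 1.55 and Rps3 at -2.37. Their many processed copies make these values uncertain. The ubiquitin-proteasome system had 2 higher and 4 lower of 27 (median -0.15), with Vcp at 1.21, the core particle genes Psma7 and Psmb7 at -1.56 and -1.52 and Psma8, the subunit of the spermatoproteasome, at -1.04.

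Apoptosis genes had 3 higher and 3 lower of 19 with a pair (median 0.07, or 0.20 after centring). Casp9, the initiator caspase downstream of cytochrome c, was higher at 2.33, from -1.73 for ClpP (adjusted p 0.0105) and 0.88 for ClpX (adjusted p 0.275) in the authors' deposited tables. The BH3-only gene Bmf had 1.39, over sites at 2.20 and 0.59. The survival gene Bcl2l2 was lower at -1.33 and Mdm4, a brake on p53, at -1.11. Mdm4 was called lower in both tables, with -0.97 and -1.80 in the authors' deposited tables. The HSP70 genes outside mitochondria had 1 higher and 2 lower of 12 with a pair (median -0.33, or -0.15 after centring). Hspa12b was lower at -1.52 without a call, Hspa1a lower at -1.20 and Hspa1b higher at 2.05. The Hspa1a and Hspa1b copies are nearly identical and reads could be assigned to either, so both values are uncertain.

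Position on the chromosomes gave small differences, apart from the Y chromosome. Autosomal medians of the relative contrast ran from -0.24 on chromosome 13 to 0.16 on chromosome 11, with chromosome 17 at 0.15, chromosome 7 at 0.11 and chromosome 14 at -0.16. The X chromosome had a median of -0.17 over 451 pairs, which was -0.03 after centring within deciles of enrichment, and its pairs had a median fold enrichment of 12.8 against 8.96 on the autosomes. The Y chromosome had a median of -1.03 on either scale, with 2 higher and 18 lower of 31 pairs on 26 genes. Most of these genes are predicted members of multicopy families, where reads cannot be assigned to a single copy. Of the known genes, Usp9y had -1.49, Eif2s3y -1.03, Uty -0.98 and Kdm5d 0.55, and the zinc finger copies Zfy1 and Zfy2 had -1.54 over 4 sites and 0.42 over 3. The known genes thus stood on both sides of 0.

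**Figure D5:**
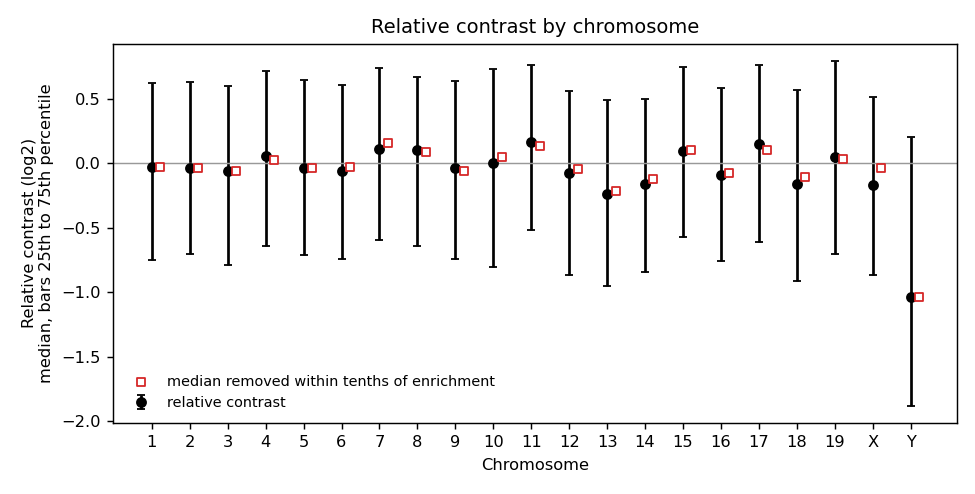
Relative contrast of pairs (y axis, log2 scale) by chromosome (x axis), with the median as a point and the 25th to 75th percentile as a bar, for chromosomes with at least 20 pairs. The Y chromosome, with 31 pairs, lies lowest at -1.03, and all other medians lie between -0.24 and 0.16.

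The number of exonic blocks in a peak moved with the contrast more than the position along the gene did. Pairs whose ClpP peak had 1 block had a median relative contrast of 0.05, those with 2 blocks -0.05, those with 3 blocks -0.17 and those with 4 or more -0.20. The share of higher pairs was 17.6%, 12.5%, 7.57% and 5.4%, while the share of lower pairs stayed between 17.2% and 20.3%. Centring within deciles left the medians at 0.06, -0.03, -0.16 and -0.22. By span of the RefSeq gene, the shortest quintile had a median of 0.11 and the longest -0.15. By distance to the annotated gene end, all medians from the last bases to beyond 5000 bases lay between -0.05 and 0.07.

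In few genes with several pairs was every pair past 1 in the same direction. Of 1343 genes with 3 or more pairs, 4 had all pairs at least 1 and 16 all pairs at most -1. Over all pairs, 15.4% were at least 1 and 18.2% at most -1. Whether these gene counts differ from what unrelated sites would give was not tested. The 4 were Tcte1, Phf12, Ubap1 and Rtl6. Tcte1, of the nexin-dynein regulatory complex of the sperm flagellum, had relative contrasts of 1.48, 1.45 and 1.75 along chromosome 17 (plus strand, from 45534832). The authors' deposited tables gave -0.69, -0.41 and -0.44 for ClpP and 1.07, 1.32 and 1.59 for ClpX at these Tcte1 sites, each called in both tables, and the last pair shares bases with another gene's peak. Phf12, of a Sin3 corepressor complex, had 1.59, 1.29 and 1.19 on chromosome 11, Ubap1, of the ESCRT-I complex, 1.30, 1.1 and 1.44 on chromosome 4, and Rtl6, a gene derived from a retrotransposon, 1.14, 1.40 and 1.56 on chromosome 15. The sites of each of these genes spread by an SD of at most 0.21, well under the median of 0.71 over genes with 2 or more pairs. These genes were chosen for their like values, so that is a description.

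The 16 lower genes included Trip11, Akap9, Syne2, Lrrcc1, Atad5 and Tasor. Trip11, a golgin, had 4 pairs from -2.71 to -1.09. Akap9, a scaffold of the centrosome and Golgi, had 3 from -3.93 to -1.22, Syne2, which links the nucleus to the cytoskeleton, 3 from -2.32 to -1.25, and Lrrcc1, of centrioles, 3 from -2.04 to -1.09. Atad5, which unloads PCNA after replication, had -1.28, -1.34 and -1.27. Tasor, of the HUSH silencing complex, had -1.64 to -1.22. The others were Atp8b5, Ercc6l2, Gramd1c, Iqcc, Lcorl, Zfp607a, Zfp729a and 3 predicted genes.

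Sites of a gene could also lie far apart. Of the 4129 genes with 2 or more pairs, 316 (7.65%) had a site at or above 1 and another at or below -1, 110 of them with all the pairs counted at a fold enrichment of at least 5, no shared bases and no predicted gene. In the receptor kinase gene Ephb1, a site on chromosome 9 (minus strand, 101922607 to 101923534) had a relative contrast of -2.76 and a site upstream (102195124 to 102195334) 2.43. Zfp64 had -2.35 and 3.32 at sites on chromosome 2 (168925654 and 168926222) that lie next to each other, and Srms had -3.84 and 2.57. Only the first site of Zfp64 and of Srms was called by the authors, each in 1 table.

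Hairpins of microRNAs offered a set of short annotated structures inside the paired peaks, and their mature sequences are shown because m6A can lie on the primary transcripts from which they are cut. Of 1005 mouse hairpins in the RefSeq table (GRCm38.p6), 10 lay wholly inside both peaks of a pair, 7 of them in pairs that share no bases with another gene's peak. The 7 mature sequences of the 5 hairpins in named host genes without shared bases are given 5-prime to 3-prime with the seed, bases 2 to 8, in capitals.
mmu-miR-1306-5p: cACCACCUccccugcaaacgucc
mmu-miR-1306-3p: aCGUUGGCucugguggugaug
mmu-miR-3618-5p: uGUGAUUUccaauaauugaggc
mmu-miR-3618-3p: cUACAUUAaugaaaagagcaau
mmu-miR-678: gUCUCGGUgcaaggacuggagg
mmu-miR-707: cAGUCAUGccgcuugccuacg
mmu-miR-5114: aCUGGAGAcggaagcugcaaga
No seed occurs more than once among them. The hairpins of miR-1306 (chromosome 16, minus strand, 18284239 to 18284317) and miR-3618 (18284550 to 18284637) lie in the same peak of Dgcr8, the partner of DROSHA in hairpin cutting, whose pair stood at -0.20 for ClpP and -0.09 for ClpX in the authors' deposited tables, a relative contrast of -0.18. The Prmt2 pair with miR-678 (chromosome 10, minus strand, 76207326 to 76207409) stood at 0.94 and -0.68 in the authors' deposited tables and was lower at -1.89. The Scd2 pair with miR-5114 (chromosome 19, plus strand, 44303171 to 44303231) stood at -0.87 and 0.45 in the authors' deposited tables and was higher at 1.04, and the Akt1s1 pair with miR-707 (chromosome 7, plus strand, 44849699 to 44849771) had -0.24. Over the 10 hairpins, with the Dgcr8 pair entered for both of its hairpins, the median was -0.18. Of them 1 was higher and 2 lower, against 15.4% and 18.2% of all pairs, which was not tested. The lower pair with miR-1896, at -2.84, shares bases with another gene's peak. The contrast is that of the whole peak and not of the hairpin.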

How the data were processed

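m6A-seq of 3 genotypes gave 6 libraries, grouped by their titles. Only 2 tables of the authors' comparisons were used. Per the file headers, the authors deposited for each peak a fold enrichment (a linear ratio), a peak p-value, a log2 fold change of the difference, and scores that are the log10 of its p-value and adjusted p-value. Per the submitters' processing notes the genome build was GRCm38 (mm10). No aligner, peak caller or depth normalisation is given in the sources used here. Depth is unknown, so no interval is given.

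Pairing used Python 3.11.15, pandas 2.3.3 and numpy 2.4.6, with figures by matplotlib 3.10.9, and was tested on simulated data. No test was possible with 1 library per group, and counts past 1 on the log2 scale are descriptions. A peak's call is the authors' adjusted p under 0.05. RefSeq (GRCm38.p6) gene spans, matched by symbol, placed 15259 pairs (88.3%) on 9801 genes.

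Named were Clpp, Clpx and mitochondrial pairs, the 10 largest relative contrasts per direction under the filters given, up to 4 genes past 1 per list with a fold enrichment of at least 2 in both tables, every m6A regulator past 1, and up to 6 oppositely called pairs per direction. A gene that this rule takes is not reported here. Other list members, genes with 3 or more like sites, genes with opposite sites, Y-linked genes and microRNA hosts were named after their values were seen. The members and the 25 lists were chosen with earlier results of these data known. The alternatives were the overlap, the centring, the filter on weak peaks, shared bases, the size, the authors' calls and the value of a gene. Identical boundaries were added after seeing the data.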

Additional observations from a re-analysis of the deposited data

Results flagged for a closer look

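The 9 pairs listed here were chosen because the authors call them in opposite directions for ClpP cKO and ClpX cKO. That the knockouts stood on opposite sides of WT was therefore set by the choice, and each comparison has its own zero. The difference between the knockouts was not tested, since each group is 1 library. The pairs with the higher value in ClpX cKO had relative contrasts of 2.25 (Xrra1), 2.74 (Ap5b1), 1.82 (Map3k10), 2.31 (Zdhhc7), 1.83 (Faap100) and 1.80 (Fbxl19). Those with the lower value had -2.36 (Fsip2), -1.69 (Ube3a) and -1.42 (Ankar). Ap5b1 and Fbxl19 had overlaps of 55.2% and 50%, so their values rest on peaks of unlike length.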

How the results depend on the processing

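Pairs at or above 1 numbered 2659 (15.4%) and those at or below -1 numbered 3144 (18.2%). These became 1452 (12.8%) and 1760 (15.5%) at 80% overlap, which left 11359 pairs. With a fold enrichment of at least 5 in both tables they were 1662 (14.6%) and 2074 (18.2%). They were 327 (12.3%) and 364 (13.6%) at identical boundaries, and 1156 (6.69%) and 1645 (9.52%) at a size of 1.5. Among the 5784 pairs the authors call in at least 1 table they were 1394 (24.1%) and 815 (14.1%). In that set the higher pairs were the more numerous on the same scale. Without centring, 4021 pairs were at least 1. The median contrast of 0.28 was 0.13 with a fold enrichment of at least 5 and 0.25 at identical boundaries. The lowest minus the highest enrichment quintile, 0.66, was 0.49 at identical boundaries. Without centring the median of the X chromosome turned to 0.11 and that of chromosome 13 to 0.0425. The SD between sites, 0.71, was 0.61 at 80% overlap and 0.54 at identical boundaries. Over 518 listed genes with a pair, each counted once, 57 higher and 47 lower became 14 and 13 of 132 at identical boundaries. When a gene took its most enriched pair, 72 were lower. At identical boundaries the median of the meiotic division list turned to -0.55 over 6 genes. Fewer pairs enter under the stricter overlap, boundary and enrichment settings, and the cause of the other moves was not tested. Of 104 named pairs past 1, 91 remained so after centring within deciles and 88 without centring. At 80% overlap 59 of the 61 left did, and with a fold enrichment of at least 5, 74 of 81. No paired analysis was possible because each group is 1 library, and for the same reason no replicate could be left out. Depth is unknown here, so the precision it gives to each value could not be stated.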

Other observations

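Genes whose symbols share a root were grouped for the 41 roots with at least 20 genes that had a pair. These groups were formed after the values were seen, and their extremes among 41 groups are descriptions without a test. Over all genes with a pair, 12.3% were higher and 16.3% lower. The small GTPases of the Arl family and genes named after them had the lowest median. Of 20, 8 (40.0%) were lower and 1 higher, with a median of -0.75 on the relative scale and -0.75 after centring within deciles of enrichment. Arl15 had -2.40, Arl9 -2.14, Arl5a -2.12 and Arl5b -1.36, and Arl8b, which moves lysosomes, 1.17. Arl6 and Arl13b, GTPases of cilia, had -0.46 and -0.62. Some of the 20 are partners or antisense genes and not GTPases, such as Arl6ip6 at -1.33 and Arl4aos at -1.93.

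Centrosomal genes of the Cep group had 8 lower and 2 higher of 34 (median -0.36). Cep78 had -2.59, Cep44 -1.60, Cep83 -1.47 and Cep152, of centriole duplication, -1.38. The 275 Zfp zinc finger genes had 69 lower (25.1%) and 22 higher, with a median of -0.27 that was -0.03 after centring within deciles. Their median fold enrichment was 14.9, and its part in that median was not tested. At the other end, the Mrpl group of the large mitochondrial ribosomal subunit had 7 higher and 3 lower of 37 (median 0.29, and 0.32 after centring), while the Mrps group of the small subunit had 1 higher and 3 lower of 21 (median -0.05). The difference between the subunits was not tested. Trim genes had 4 higher (13.3%) and 0 lower of 30, and Ddx helicases 0 higher and 4 lower (15.4%) of 26. Their medians were 0.05 and 0.03, and these shares lay close to the 12.3% higher and 16.3% lower of all genes.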
